A study of Homo sapiens with 8 samples.

Results

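Aminoacyl-tRNA synthetases join each amino acid to its transfer RNA, and so supply the ribosome with every building block it uses. Human cells keep a set of these enzymes for the cytosol and, encoded by separate nuclear genes, another for the ribosomes inside mitochondria. Genes of the cytosolic set are known targets of ATF4, the transcription factor of the integrated stress response (the programme by which cells answer amino acid shortage and other stress), and WARS1, the cytosolic tryptophan enzyme, is also known as a gene that interferon switches on. Described here are 35 synthetase genes: 19 cytosolic genes and 16 mitochondrial genes, whose symbols end in 2. They were taken by gene symbol from a fixed list, which was drawn up with earlier results of these data known. All 35 were found under their current symbols among 60592 gene rows, none shared its symbol with another row, and all 35 passed the filter on low values that left 12063 genes for testing.

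RNA was sequenced from WSU-DLCL2, a cell line grown from a human diffuse large B-cell lymphoma, in 4 groups of 2 libraries. FDX1-OE ES cells overexpressed FDX1, a mitochondrial ferredoxin that can reduce the copper carried by elesclomol, and were given 15 nM of that compound (ES) for 48 h. FDX1-OE DMSO cells received the solvent, and control ES and control DMSO cells, labelled as wild type, had the same treatments without FDX1 overexpression. The labels do not say how FDX1 was overexpressed, whether the cells were a clone or a pool, or what vector the control cells carried. Separate cultures are not stated for libraries of the same group. The p-values therefore rest on the spread between these libraries alone, which may be technical.

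FDX1 itself stood at 60.7 and 59.4 FPKM in FDX1-OE ES and 59.8 and 56.0 FPKM in FDX1-OE DMSO, against 9.88 and 10.0 FPKM in control ES and 10.8 and 10.4 FPKM in control DMSO. FPKM counts fragments per length of gene, scaled to the size of the library, so levels of different genes can be compared. The 7 B-cell markers summed to between 1368 and 1510 FPKM over all libraries, and all 7 T and NK cell markers and all 7 myeloid markers lay below 1 FPKM in every group. Of 6 epithelial and fibroblast markers, 5 lay below 1 FPKM in every library, and DCN had 0.46 and 0.42 FPKM in FDX1-OE ES, against 1.13 and 1.46 FPKM in FDX1-OE DMSO, with 1.004 and 0.85 FPKM in control ES, against 1.30 and 0.999 FPKM in control DMSO. The 2 FDX1-OE ES libraries stood apart: their FPKM totals were 403024 and 408018, against 445716 to 451027 in the other 6, and 11868 and 12047 genes reached 1 FPKM in them, against 10815 to 11320. Between the 2 libraries of a group, the median absolute difference over the 35 genes was 0.11 log2 units in FDX1-OE ES and 0.05 to 0.07 in the other groups. Depth is not known, and in bulk RNA less RNA per cell and fewer cells carrying a transcript cannot be told apart.

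Promoter sequence is shown first, for genes picked by a match in the search described next and not by known regulation. RefSeq (GRCh38.p14) gave 39 windows of 300 bases, from 250 before to 50 after an annotated start, for 30 of the 35 genes; LARS1, VARS1, YARS1, AARS2 and VARS2 had none. They were searched on both strands for the core of the C/EBP-ATF response element that ATF4 binds, TGATGNAA, and for the core of the interferon-stimulated response element, written as GAAA, any 2 bases and GAAA. The ATF4 core lay in windows of 8 of the 30 genes, of which 7 were cytosolic. Counted by window, 8 of the 39 hold it, while 3.62% of all 35116 windows do. The 30 bases around it are given below on the strand of each gene, with the core or its reverse complement in capitals.
CARS1, chr11:3057407-3057436, minus strand: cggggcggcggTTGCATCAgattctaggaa
TARS1, chr5:33440956-33440985, plus strand: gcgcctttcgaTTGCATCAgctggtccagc
IARS1, chr9:92293692-92293721, minus strand: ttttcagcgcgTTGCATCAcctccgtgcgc
MARS1, chr12:57488053-57488082, plus strand: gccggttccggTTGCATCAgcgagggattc
AARS1, chr16:70289675-70289704, minus strand: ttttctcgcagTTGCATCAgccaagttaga
NARS1, chr18:57621804-57621833, minus strand: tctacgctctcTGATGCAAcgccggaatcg
GARS1, chr7:30594834-30594863, plus strand: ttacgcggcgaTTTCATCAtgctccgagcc
YARS2, chr12:32756076-32756105, minus strand: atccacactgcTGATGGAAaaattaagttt
A match is a description of these letters, not evidence of binding, and it began within 33 bases of the annotated start in 6 of the 8 genes, the exceptions being AARS1 (position -187 relative to it) and YARS2 (position -197).

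WARS1 has 2 annotated starts in the table. The interferon core stood 55 bases before the second, in the 250 bases shown here (chr14:100375348-100375597, minus strand) with the core in capitals.
WARS1: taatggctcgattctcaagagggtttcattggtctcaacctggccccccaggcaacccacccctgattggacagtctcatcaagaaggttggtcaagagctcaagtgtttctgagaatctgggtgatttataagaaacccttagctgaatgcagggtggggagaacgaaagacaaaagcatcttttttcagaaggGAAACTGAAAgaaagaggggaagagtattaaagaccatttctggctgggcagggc
The same core was in 3 of the 39 windows and in 3.57% of all windows, and among the other 29 genes with a window it was found in EARS2, the mitochondrial glutamate enzyme. No ATF4 core was found in either WARS1 window.

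The cytosolic enzymes were the more abundant set in every group. FDX1-OE ES libraries had a summed cytosolic level of 1263 ± 31.1 FPKM, against 1200 ± 30.02 FPKM for FDX1-OE DMSO, and control ES libraries had 1207 ± 47.8 FPKM, against 1202 ± 9.45 FPKM for control DMSO (SD, n = 2 each). The summed mitochondrial level was 254 ± 5.98 FPKM for FDX1-OE ES, against 250 ± 4.32 FPKM for FDX1-OE DMSO, and 261 ± 2.97 FPKM for control ES, against 253 ± 3.61 FPKM for control DMSO (SD, n = 2 each). The cytosolic set was thus far above the mitochondrial set everywhere, and the FPKM sums of each set lay close together over the 4 groups. Shares of the library total were higher in FDX1-OE ES. The cytosolic set made up 0.315% and 0.308% there, against 0.2621% to 0.2775% in the other groups. The mitochondrial set made up 0.0613% and 0.06415%, against 0.0554% to 0.0588%. Without WARS1 the cytosolic sum was 1175 and 1119 FPKM in FDX1-OE ES, against 1152 and 1191 FPKM in FDX1-OE DMSO. The mean log2 level of cytosolic genes exceeded that of mitochondrial genes by 2.15 ± 0.10 for FDX1-OE ES, against 2.11 ± 0.0043 for FDX1-OE DMSO, and by 2.09 ± 0.06 for control ES, against 2.10 ± 0.05 for control DMSO (SD, n = 2 each). Within the cytosolic set the lowest gene in every group was FARSB, the beta subunit of the phenylalanine enzyme, with a mean of 12.1 FPKM in FDX1-OE ES and 16.6 FPKM in FDX1-OE DMSO. The highest was GARS1, the glycine enzyme, in FDX1-OE ES, at a mean of 146 FPKM. Within the mitochondrial set PARS2 (proline) was lowest, at 3.05 FPKM in FDX1-OE ES and 2.97 FPKM in FDX1-OE DMSO, and IARS2 (isoleucine) was highest, at 51.0 and 60.9 FPKM in those 2 groups.

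Elesclomol in FDX1-OE cells moved synthetase genes in both directions. Of the 35, 13 rose and 9 fell against FDX1-OE DMSO (limma on log2(FPKM + 1), called where p, adjusted after Benjamini and Hochberg across the 12063 genes tested, was below 0.05). Of all genes tested, 47.1% rose and 13.7% fell. Their median log2 fold change was 0.03, against 0.25 over all genes, and 9 of the 35 lay above that overall median. Among cytosolic genes 6 rose and 5 fell, and among mitochondrial genes 7 rose and 4 fell. This split depends on scaling, since 2 cytosolic genes rose and 10 fell, and 1 mitochondrial gene rose and 6 fell, after median-ratio scaling, which brings the median over all genes to -0.01. The counts were 5 and 5, and 1 and 7, after quantile normalisation, and 10 and 4, and 7 and 2, with library totals made equal, where the median over all genes was 0.37. The shares of all genes that rose and fell under these other scalings are not given, so these counts cannot be set against them. The number called was 11 without FDX1-OE DMSO replicate 1 and 12 without FDX1-OE DMSO replicate 2. CARS1, FARSA, FARSB, QARS1, VARS1, WARS1, LARS2 and MARS2 were called under all 18 alternatives tried.

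**Figure D1:**
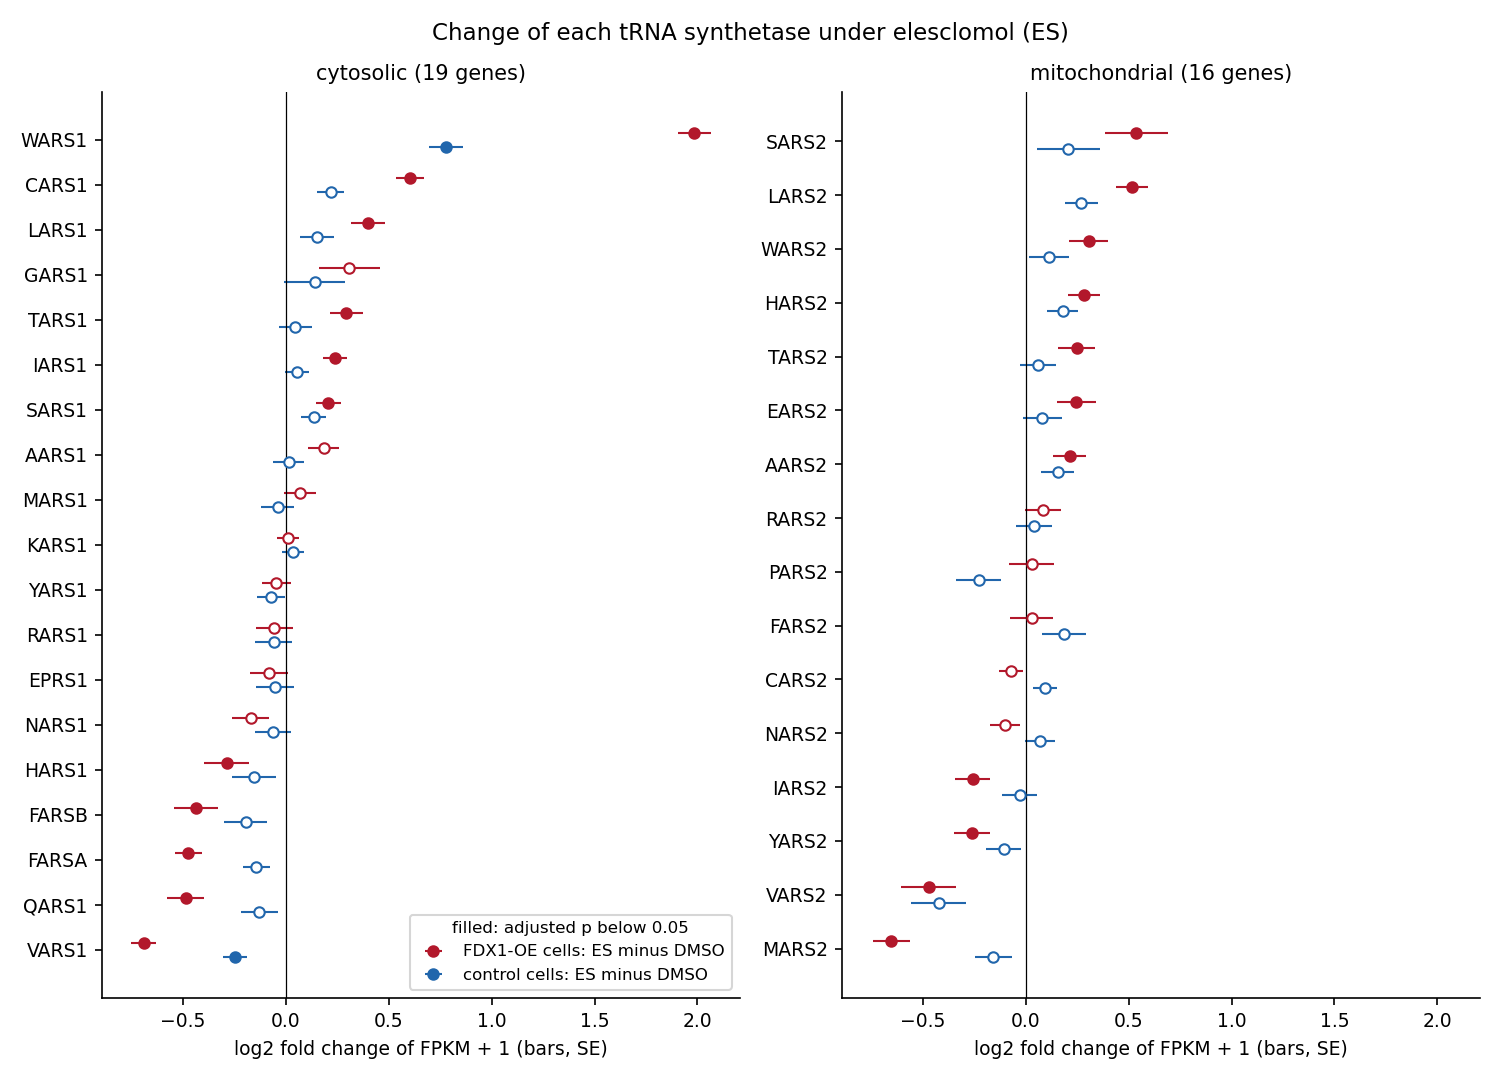
Log2 fold change of FPKM + 1 (x axis, bars show SE) for the 19 cytosolic and 16 mitochondrial genes, under elesclomol against DMSO in FDX1-OE cells (red) and in control cells (blue); filled points have an adjusted p below 0.05. WARS1 has the highest value in both lines, and the 5 genes that flip sign under median-ratio scaling (IARS1, SARS1, AARS2, EARS2 and TARS2) are among the smaller positive values; WARS2, AARS2 and EARS2 flip after quantile normalisation.

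WARS1 changed most. This enzyme charges tryptophan in the cytosol and can also be secreted. It stood at 111 and 122 FPKM in FDX1-OE ES, against 27.1 and 30.2 FPKM in FDX1-OE DMSO. Control ES had 51.2 and 53.8 FPKM, against 31.4 and 29.1 FPKM in control DMSO. The 2 DMSO groups overlap, both control ES libraries lie above them, and both FDX1-OE ES libraries lie above all the others. The rise was 1.98 (SE 0.08, adjusted p = 2.79e-06) on the log2 scale in FDX1-OE cells and 0.78 (SE 0.08, adjusted p = 0.00397) in control cells. Levels in FDX1-OE ES were 1.13 higher than in control ES (SE 0.08, adjusted p = 0.000114). The difference between the 2 elesclomol effects, tested as an interaction, was 1.21 (SE 0.11, adjusted p = 0.00145). The rise in FDX1-OE cells ranked 106 among all genes tested and ranged from 1.70 to 2.13 over 18 alternatives. In control cells the call was lost without control ES replicate 2 (0.74, adjusted p = 0.0604) and with no filter on low values (adjusted p = 0.0513).

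WARS1 also moved up in the order of the cytosolic genes. It made up 8.60% and 9.85% of the summed cytosolic FPKM in FDX1-OE ES, against 2.30% and 2.48% in FDX1-OE DMSO. Its share was 4.13% and 4.59% in control ES, against 2.60% and 2.43% in control DMSO. By level it ranked 3 and 2 among the 19 cytosolic genes in the FDX1-OE ES libraries, 12 in both control ES libraries and 16 in all 4 DMSO libraries. Its mitochondrial partner WARS2 had 4.86 and 5.29 FPKM in FDX1-OE ES, against 3.76 and 4.08 FPKM in FDX1-OE DMSO, with 4.27 and 4.58 FPKM in control ES, against 4.24 and 3.81 FPKM in control DMSO. WARS2 rose by 0.31 in FDX1-OE cells (SE 0.10, adjusted p = 0.0245), and kept its call under 10 of 17 alternatives. Its value was -0.08 after quantile normalisation and 0.07 after median-ratio scaling, not called in either. The call was also lost without FDX1-OE DMSO replicate 1 (0.26), FDX1-OE DMSO replicate 2 (0.35) or FDX1-OE ES replicate 2 (0.25). The ratio of WARS1 to WARS2 was 22.9 in FDX1-OE ES, against 7.32 in FDX1-OE DMSO, and 11.9 in control ES, against 7.52 in control DMSO.

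**Figure D2:**
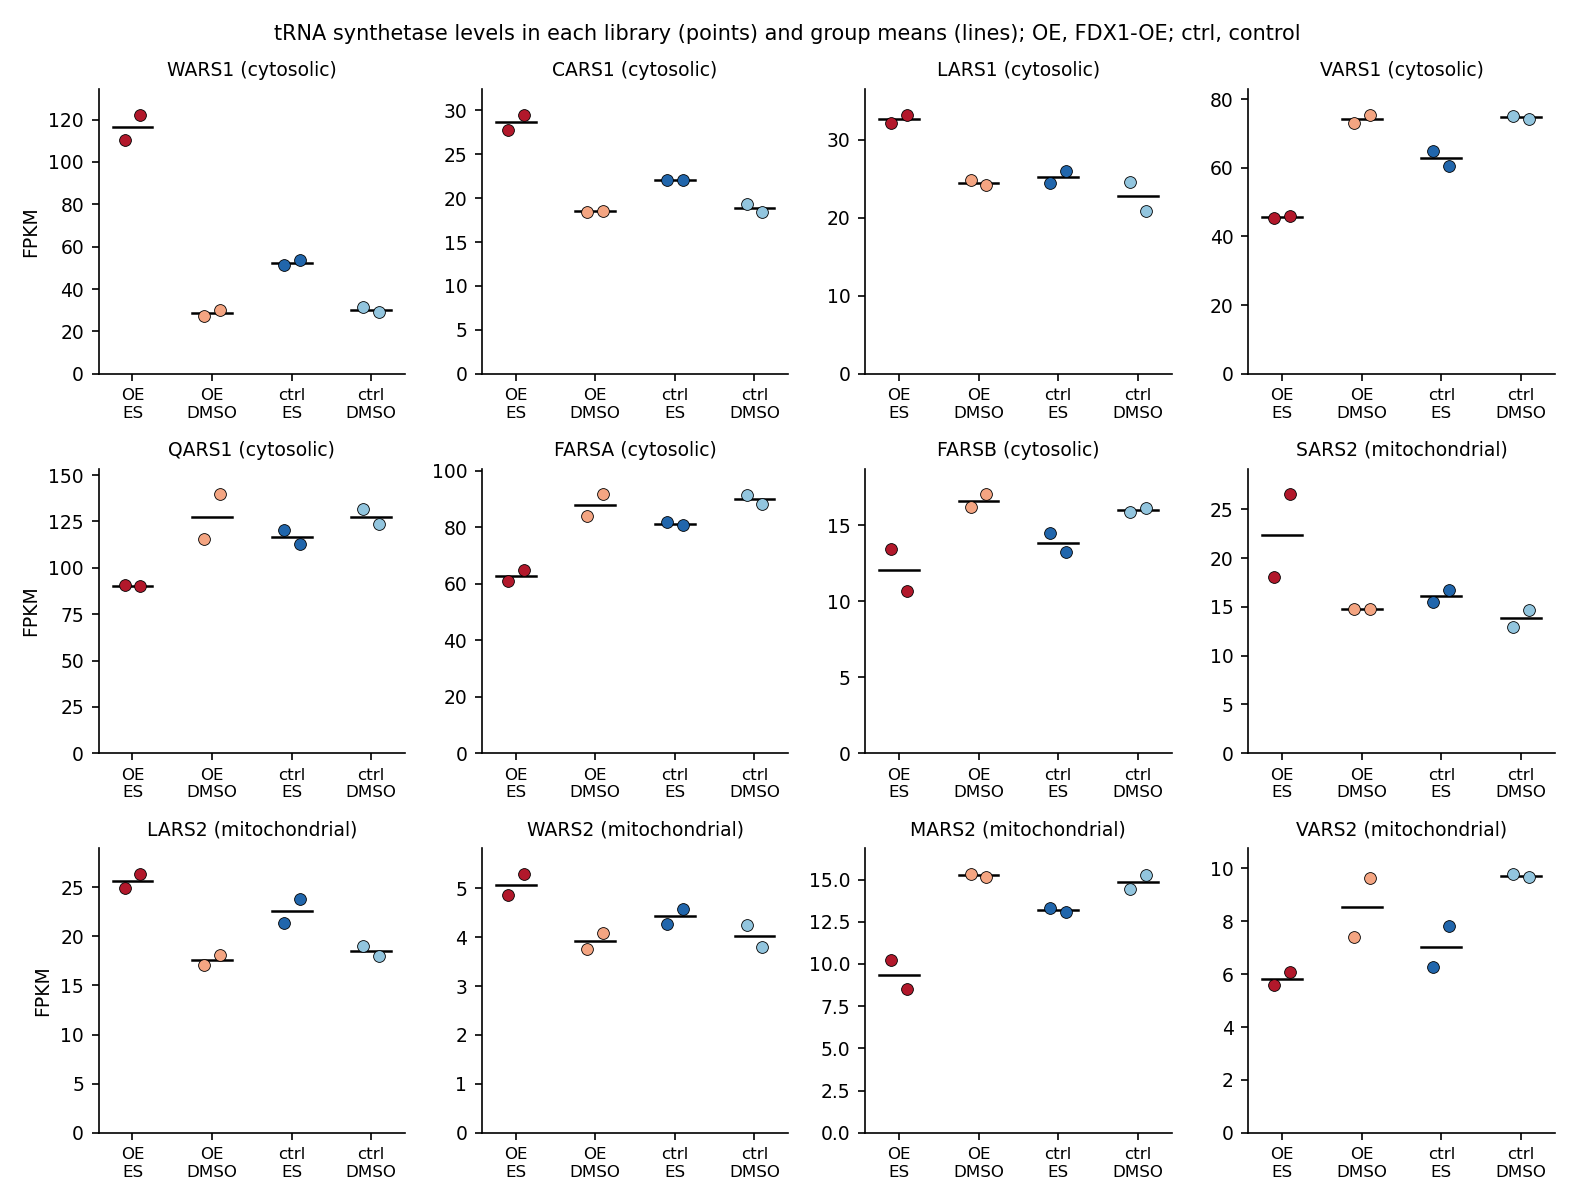
FPKM (y axes, from 0) of the 7 cytosolic and 5 mitochondrial genes with the largest called changes in FDX1-OE cells, in each library (points) with group means (lines); OE is FDX1-OE and ctrl is control. WARS1 reaches 111 and 122 FPKM in FDX1-OE ES, while VARS1, QARS1, FARSA, MARS2 and VARS2 have both FDX1-OE ES libraries below all others and FARSB overlaps with control ES.

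Among the other cytosolic genes that rose, CARS1, the cysteine enzyme, had 27.8 and 29.5 FPKM in FDX1-OE ES, against 18.4 and 18.6 FPKM in FDX1-OE DMSO. Control ES had 22.1 and 22.1 FPKM, against 19.4 and 18.4 FPKM in control DMSO. CARS1 rose by 0.60 in FDX1-OE cells (SE 0.07, adjusted p = 0.000165). In control cells it was at 0.22 (SE 0.07, adjusted p = 0.0813), and its interaction was 0.39 (SE 0.09, adjusted p = 0.0268). LARS1, the leucine enzyme, which also senses leucine for the growth kinase mTORC1, had 32.1 and 33.2 FPKM in FDX1-OE ES, against 24.9 and 24.1 FPKM in FDX1-OE DMSO, with 24.5 and 26.04 FPKM in control ES, against 24.5 and 20.9 FPKM in control DMSO. LARS1 rose by 0.40 in FDX1-OE cells (SE 0.08, adjusted p = 0.00390), and by median-ratio scaling its value was 0.12 and was not called. TARS1 (threonine) at 0.29, IARS1 (isoleucine) at 0.24 and SARS1 (serine) at 0.21 were the remaining cytosolic rises, and under median-ratio scaling TARS1 was at 0.01 (adjusted p = 0.918), IARS1 at -0.05 and SARS1 at -0.08. TARS1 was not called after quantile normalisation either (0.22, adjusted p = 0.0704). Without 1 library each lost its call: TARS1 without FDX1-OE DMSO replicate 1 (0.26, adjusted p = 0.0825), SARS1 without the same library (0.14, adjusted p = 0.161) and IARS1 without FDX1-OE DMSO replicate 2 (0.21, adjusted p = 0.0660).

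GARS1, whose gene makes the glycine enzyme for both compartments, had 159 and 134 FPKM in FDX1-OE ES, against 119 and 116 FPKM in FDX1-OE DMSO. Control ES had 145 and 101 FPKM, against 109 and 111 FPKM in control DMSO. The 2 control ES libraries of GARS1 were the widest apart of any cytosolic gene, and its 0.31 in FDX1-OE cells was not called (SE 0.15, adjusted p = 0.104). KARS1, the lysine enzyme and the other gene that serves both compartments, was the cytosolic member nearest to no change. It had 121 and 120 FPKM in FDX1-OE ES, against 121 and 118 FPKM in FDX1-OE DMSO, and 123 and 128 FPKM in control ES, against 122 and 124 FPKM in control DMSO. Its log2 fold change was 0.01 (SE 0.05, adjusted p = 0.873) in FDX1-OE cells and 0.04 (SE 0.05, adjusted p = 0.701) in control cells.

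VARS1, QARS1, FARSA, FARSB and HARS1 were the 5 cytosolic genes that fell, with enzymes for valine, glutamine, phenylalanine and histidine. VARS1, the valine enzyme, had 45.3 and 45.9 FPKM in FDX1-OE ES, against 73.2 and 75.4 FPKM in FDX1-OE DMSO. Control ES had 65.0 and 60.5 FPKM, against 75.2 and 74.2 FPKM in control DMSO. The 4 DMSO libraries lie together, control ES lies below them and FDX1-OE ES lies below all. VARS1 fell by 0.69 in FDX1-OE cells (SE 0.06, adjusted p = 6.25e-05) and by 0.25 in control cells (SE 0.06, adjusted p = 0.0435), and its interaction was -0.44 (SE 0.08, adjusted p = 0.0130). The call in control cells was lost under 9 of 18 alternatives, among them leaving out either control ES or any of the 4 DMSO libraries, with adjusted p up to 0.274 without control ES replicate 2.

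The phenylalanine enzyme is a tetramer of paired alpha and beta subunits, and both of its genes fell. FARSA (alpha) had 60.9 and 64.9 FPKM in FDX1-OE ES, against 84.0 and 91.6 FPKM in FDX1-OE DMSO, with 81.7 and 80.8 FPKM in control ES, against 91.5 and 88.3 FPKM in control DMSO. FARSB (beta) had 13.5 and 10.7 FPKM in FDX1-OE ES, against 16.2 and 17.03 FPKM in FDX1-OE DMSO, with 14.5 and 13.2 FPKM in control ES, against 15.9 and 16.1 FPKM in control DMSO. FARSA fell by 0.47 (SE 0.07, adjusted p = 0.000479) and FARSB by 0.44 (SE 0.11, adjusted p = 0.00732) in FDX1-OE cells. Neither was called in control cells, where they were at -0.14 and -0.20. The interaction was called for FARSA (-0.33, SE 0.09, adjusted p = 0.0414) and not for FARSB (-0.24, SE 0.15, adjusted p = 0.272). FARSA lost that call in 11 of 17 alternatives, among them the replicate block (adjusted p = 0.0546) and leaving out any one of 6 libraries (adjusted p up to 0.153), and the 2 genes were not tested against each other. FARS2, the single-chain mitochondrial phenylalanine enzyme and the mitochondrial member nearest to no change, had 6.14 and 7.44 FPKM in FDX1-OE ES, against 6.40 and 6.84 FPKM in FDX1-OE DMSO, with 7.02 and 7.86 FPKM in control ES, against 6.20 and 6.66 FPKM in control DMSO. Its log2 fold change in FDX1-OE cells was 0.03 (SE 0.11, adjusted p = 0.833).

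QARS1, the glutamine enzyme, had 90.6 and 90.2 FPKM in FDX1-OE ES, against 116 and 140 FPKM in FDX1-OE DMSO, with 120 and 113 FPKM in control ES, against 131 and 124 FPKM in control DMSO. It fell by 0.49 in FDX1-OE cells (SE 0.09, adjusted p = 0.00189), and its interaction of -0.36 was not called (adjusted p = 0.0788). Mitochondria have no separate glutamine enzyme and make their glutaminyl-tRNA by a detour: EARS2 loads glutamate, and the amidotransferase built from QRSL1, GATB and GATC converts it. QRSL1 had 13.9 and 14.3 FPKM in FDX1-OE ES, against 10.1 and 9.57 FPKM in FDX1-OE DMSO, with 10.995 and 10.4 FPKM in control ES, against 9.97 and 10.2 FPKM in control DMSO. QRSL1 rose by 0.49 (SE 0.07, adjusted p = 0.000751), GATB by 0.29 (SE 0.07, adjusted p = 0.00818) and EARS2 by 0.25 (SE 0.09, adjusted p = 0.0496), whereas GATC was at 0.03 (adjusted p = 0.823). The sign of EARS2 turned under median-ratio scaling (-0.02) and quantile normalisation (-0.01), GATB lost its call without FDX1-OE DMSO replicate 2 (adjusted p = 0.0518) and under median-ratio scaling, and QRSL1 was called under all 18 alternatives.

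HARS1 and HARS2, the cytosolic and mitochondrial histidine enzymes, are read in opposite directions from neighbouring starts. They are the only 2 of the 30 genes with a promoter window whose windows overlap. The 84 bases between the starts (chr5:140691371-140691454, plus strand) are shown because the 2 genes were called in opposite directions.
HARS1 and HARS2: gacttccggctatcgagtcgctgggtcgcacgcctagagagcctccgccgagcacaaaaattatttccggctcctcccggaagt
HARS1 had 37.8 and 35.2 FPKM in FDX1-OE ES, against 43.8 and 45.9 FPKM in FDX1-OE DMSO, with 46.4 and 36.3 FPKM in control ES, against 44.4 and 47.4 FPKM in control DMSO. HARS2 had 12.8 and 11.7 FPKM in FDX1-OE ES, against 9.74 and 10.0 FPKM in FDX1-OE DMSO, with 11.9 and 12.2 FPKM in control ES, against 10.3 and 10.7 FPKM in control DMSO. HARS1 fell by 0.29 (SE 0.11, adjusted p = 0.0458) and HARS2 rose by 0.28 (SE 0.08, adjusted p = 0.0122) in FDX1-OE cells, and their ratio was 2.98 in FDX1-OE ES, against 4.54 in FDX1-OE DMSO. Neither was called in control cells. HARS1 kept its call under 8 of 18 alternatives, losing it without any one of 6 libraries (adjusted p up to 0.178 without FDX1-OE DMSO replicate 2), and HARS2 under 14, losing it without FDX1-OE DMSO replicate 1 (adjusted p = 0.0733). HARS2 was at 0.018 after median-ratio scaling (adjusted p = 0.856) and at 0.022 after quantile normalisation (adjusted p = 0.836). How the authors treated strand is not given, so reads from overlapping stretches of such neighbours cannot be told apart.

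Among mitochondrial genes the deepest fall was in MARS2, the methionine enzyme, whose charged tRNA serves both to start and to extend mitochondrial proteins. MARS2 had 10.2 and 8.51 FPKM in FDX1-OE ES, against 15.3 and 15.2 FPKM in FDX1-OE DMSO, with 13.3 and 13.1 FPKM in control ES, against 14.4 and 15.2 FPKM in control DMSO. It fell by 0.65 in FDX1-OE cells (SE 0.09, adjusted p = 0.000494), with -0.16 in control cells (adjusted p = 0.292) and an interaction of -0.50 (SE 0.13, adjusted p = 0.0329). VARS2 (valine) had 5.58 and 6.08 FPKM in FDX1-OE ES, against 7.41 and 9.65 FPKM in FDX1-OE DMSO, with 6.25 and 7.83 FPKM in control ES, against 9.79 and 9.66 FPKM in control DMSO. VARS2 fell by 0.47 in FDX1-OE cells (SE 0.13, adjusted p = 0.0157), was at -0.42 in control cells (SE 0.13, adjusted p = 0.0911), and lost its call in FDX1-OE cells without FDX1-OE DMSO replicate 2 (-0.30, adjusted p = 0.119) or FDX1-OE ES replicate 1 (-0.42, adjusted p = 0.0619).

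YARS2 (tyrosine) had 8.90 and 9.01 FPKM in FDX1-OE ES, against 11.4 and 10.47 FPKM in FDX1-OE DMSO, with 11.5 and 10.1 FPKM in control ES, against 11.5 and 11.8 FPKM in control DMSO. IARS2 had 55.9 and 46.1 FPKM in FDX1-OE ES, against 60.6 and 61.2 FPKM in FDX1-OE DMSO, with 59.4 and 59.1 FPKM in control ES, against 60.9 and 60.0 FPKM in control DMSO. Each fell by 0.26 in FDX1-OE cells (SE 0.09, adjusted p = 0.0282 for YARS2 and 0.0298 for IARS2), and both calls were lost without either FDX1-OE DMSO library (adjusted p up to 0.167 for YARS2 and 0.114 for IARS2). Leaving out FDX1-OE ES replicate 1 for YARS2 (adjusted p = 0.0541) and FDX1-OE ES replicate 2 for IARS2 (-0.12, adjusted p = 0.0535) had the same outcome.

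Of the mitochondrial genes that rose, SARS2 (serine) had 18.1 and 26.5 FPKM in FDX1-OE ES, against 14.8 and 14.8 FPKM in FDX1-OE DMSO, with 15.4 and 16.7 FPKM in control ES, against 13.0 and 14.7 FPKM in control DMSO. LARS2 (leucine) had 24.9 and 26.4 FPKM in FDX1-OE ES, against 17.1 and 18.1 FPKM in FDX1-OE DMSO, with 21.4 and 23.8 FPKM in control ES, against 19.1 and 18.0 FPKM in control DMSO. The 2 FDX1-OE ES libraries of SARS2 were far apart, those of LARS2 close. SARS2 rose by 0.54 (SE 0.15, adjusted p = 0.0154) and LARS2 by 0.52 (SE 0.08, adjusted p = 0.000755) in FDX1-OE cells, and SARS2 lost its call without FDX1-OE DMSO replicate 1 (adjusted p = 0.0611) or 2 (adjusted p = 0.0627). After median-ratio scaling SARS2 was at 0.26 (adjusted p = 0.176) and after quantile normalisation at 0.33 (adjusted p = 0.125). In control cells LARS2 was at 0.27 (SE 0.08, adjusted p = 0.0738). TARS2 (threonine) at 0.25, EARS2 at 0.25 and AARS2 (alanine) at 0.21 were the smallest mitochondrial rises: all 3 turned negative under median-ratio scaling and all 3 lost their calls without any one of 7 of the 8 libraries, with adjusted p up to 0.211.

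Cytosolic and mitochondrial genes for 1 amino acid could be paired for 14 amino acids. In 13 of the 14 pairs the cytosolic gene was higher in every library, and the exception was cysteine, where CARS2 exceeded CARS1. In FDX1-OE cells 5 pairs (leucine, serine, threonine, valine and tryptophan) had both genes called in the same direction under elesclomol, 2 pairs (histidine and isoleucine) in opposite directions, 5 pairs had 1 gene called and 2 had none. These calls depend on scaling: of the 5 pairs, only valine kept both calls under median-ratio scaling, and leucine and valine did after quantile normalisation, while all 5 did with equal totals. Of the 2 opposite pairs, 0 kept both calls under median-ratio scaling or with equal totals, and isoleucine did after quantile normalisation. The cysteine ratio of cytosolic to mitochondrial FPKM was 0.76 in FDX1-OE ES, against 0.47 in FDX1-OE DMSO, and 0.49 in control ES, against 0.45 in control DMSO. The methionine ratio was 9.38 in FDX1-OE ES, against 5.41 in FDX1-OE DMSO, with MARS1 at 0.07 (adjusted p = 0.481) while MARS2 fell. The isoleucine ratio was 1.70 in FDX1-OE ES, against 1.198 in FDX1-OE DMSO. These ratios are within a library and do not depend on its scaling. They show unequal change of the 2 genes and not which of them moved.

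**Figure D3:**
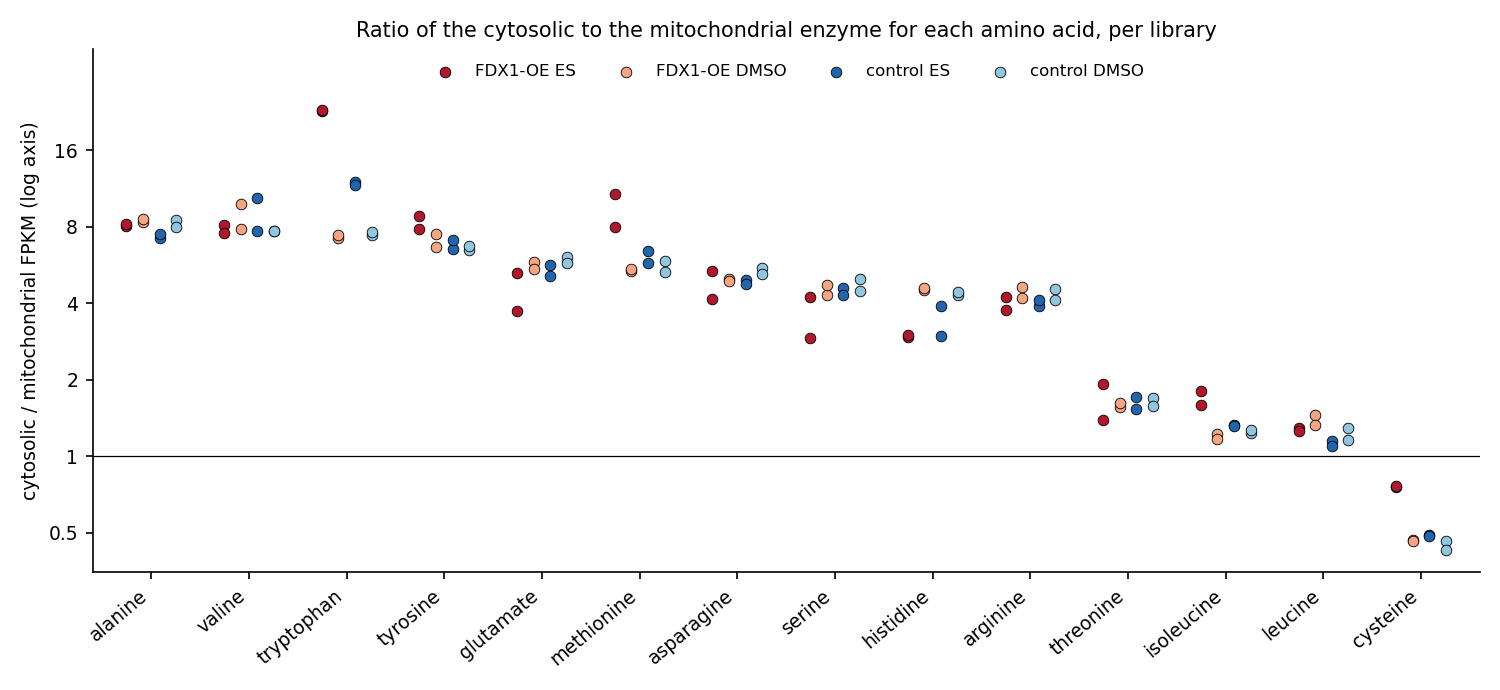
Ratio of cytosolic to mitochondrial FPKM (log axis) for 14 amino acids, 1 point per library, coloured by group. Tryptophan is near 23 in FDX1-OE ES and near 7 in FDX1-OE DMSO, and cysteine lies below 1 in every library.

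In control cells 2 of the 35 genes were called under elesclomol against control DMSO: WARS1 rose and VARS1 fell. Of all genes tested 6.74% rose and 1% fell in this comparison. The median over the 35 was 0.04, against 0.09 over all genes. All 22 genes called in FDX1-OE cells had the same sign in control cells, while over all genes called there 90.0% did. Of the 35, 29 had the larger absolute change in FDX1-OE cells. That count was not taken over all genes, of which 7334 were called in FDX1-OE cells, against 934 in control cells. Leaving out control ES replicate 2 left 0 calls in control cells, leaving out the other control ES library or any 1 of the 4 DMSO libraries left 1, and leaving out either FDX1-OE ES library gave 4. Median-ratio scaling gave 1 rise and 2 falls, and quantile normalisation 1 rise and 0 falls, with the shares of all genes under these scalings not given. The SE of the 35 genes was between 0.05 and 0.15 here, and a value that missed the threshold does not show that a gene did not change.

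With elesclomol present, 5 genes were higher and 5 lower in FDX1-OE ES than in control ES, against 31.1% of all genes higher and 10.4% lower. WARS1, CARS1 (0.36), LARS1 (0.36), TARS1 (0.25) and PARS2 (0.35) were higher, and MARS2 (-0.46), VARS1 (-0.45), FARSA (-0.37), QARS1 (-0.36) and CARS2 (-0.26) were lower. PARS2 had 2.94 and 3.15 FPKM in FDX1-OE ES, against 2.44 and 1.94 FPKM in control ES, and its adjusted p of 0.0358 passed the threshold in 4 of 17 alternatives. TARS1 (adjusted p = 0.0376) kept its call in 6 of 18 alternatives and lost it without any one of 7 libraries (adjusted p up to 0.149). LARS1 (0.31, adjusted p = 0.0812) and QARS1 (-0.32, adjusted p = 0.0902) lost theirs without control ES replicate 1. CARS1 was not called under median-ratio scaling (0.19, adjusted p = 0.0596). CARS2 had 36.6 and 38.6 FPKM in FDX1-OE ES, against 45.0 and 45.4 FPKM in control ES (adjusted p = 0.0101), a call lost without control ES replicate 1 (adjusted p = 0.0556) or 2 (adjusted p = 0.0550). The number called was 17 without FDX1-OE ES replicate 1. Scaling moved this split too: among cytosolic genes 1 was higher and 6 lower by median-ratio scaling, 3 and 4 by quantile normalisation and 9 and 2 with equal totals. Among mitochondrial genes the counts were 0 and 5, 0 and 6, and 6 and 1. The shares of all genes under these scalings are not given. This comparison shares its FDX1-OE ES libraries with the one against FDX1-OE DMSO and its control ES libraries with the one against control DMSO.

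Without elesclomol no synthetase gene was called between FDX1-OE DMSO and control DMSO by limma, and the largest absolute log2 fold change among the 35 was 0.18, in VARS2. At an unadjusted p below 0.05 the count was 0 as well. Over all genes 0.00829% were higher, which is FDX1 alone, and 0% were lower, with 420 genes at an unadjusted p below 0.05. The interaction, the elesclomol effect in FDX1-OE cells minus that in control cells, was called for 2 genes with a higher value (WARS1 and CARS1) and 3 with a lower one (VARS1, FARSA and MARS2), against 13.9% higher and 5.06% lower over all genes. WARS1 kept this call under all 17 alternatives. CARS1 and MARS2, like FARSA, lost it without any one of the control DMSO, FDX1-OE DMSO or control ES libraries (adjusted p up to 0.108 and 0.111), and VARS1 without 5 of those 6 (adjusted p up to 0.0636). The number of calls was 1 without either control DMSO library, FDX1-OE DMSO replicate 2 or control ES replicate 1, 2 without FDX1-OE DMSO replicate 1 or control ES replicate 2, and 10 without FDX1-OE ES replicate 1. By median-ratio scaling 1 gene had a higher value and 5 a lower one, by quantile normalisation 1 and 2, and with equal totals 6 and 1. Here too the shares of all genes under these scalings are not given.

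The promoter sequences above can be read beside these values. Of the 7 cytosolic genes with the ATF4 core, CARS1, TARS1 and IARS1 rose in FDX1-OE cells and none fell, and AARS1 (0.18), GARS1 (0.31), MARS1 (0.07) and NARS1 (-0.17) were not called. The other gene with the core, the mitochondrial YARS2, fell (-0.26). Of all genes tested, 47.1% rose and 13.7% fell. The median of the 7 cytosolic genes was 0.24, near the 0.25 of all genes. Of the 9 cytosolic genes with a window and no core, WARS1 and SARS1 rose, FARSA, FARSB, HARS1 and QARS1 fell, and the median was -0.08. The sign of IARS1 and SARS1 flips under median-ratio scaling, as given above. TARS1 was at 0.01 under that scaling, and it was called neither there nor after quantile normalisation. Of these cytosolic rises only CARS1 and WARS1 were called under all 18 alternatives, and of the falls all but HARS1 were. In control cells the medians were 0.05 and -0.06, and WARS1 was the only one of these 16 genes called. Of the 13 mitochondrial genes with a window and no core, 6 rose and 2 fell in FDX1-OE cells, with a median of 0.08.

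Genes that work with the synthetases also moved both ways. Of 15 such genes 5 rose and 4 fell in FDX1-OE cells, where 47.1% of all genes rose and 13.7% fell. In control cells 0 of the 15 were called by limma, where 6.74% of all genes rose and 1% fell, and 2 of the 15 had an unadjusted p below 0.05. Scaffold proteins hold part of the cytosolic enzymes in a multi-synthetase complex. EEF1E1, also called AIMP3, had 29.1 and 24.001 FPKM in FDX1-OE ES, against 48.4 and 48.8 FPKM in FDX1-OE DMSO, with 41.6 and 40.8 FPKM in control ES, against 46.9 and 48.1 FPKM in control DMSO. EEF1E1 fell by 0.85 (SE 0.09, adjusted p = 0.000126) and its interaction was -0.65 (SE 0.12, adjusted p = 0.0129). AIMP2 fell by 0.41 (SE 0.06, adjusted p = 0.000763), and AIMP1 was at 0.03 (adjusted p = 0.793). Of the 7 synthetases of the list that belong to this complex, IARS1 and LARS1 rose and QARS1 fell, with a median of 0.01. PSTK, a kinase that prepares serine-loaded tRNA for selenocysteine, had 2.98 and 2.80 FPKM in FDX1-OE ES, against 1.33 and 1.39 FPKM in FDX1-OE DMSO, and 1.54 and 1.40 FPKM in control ES, against 1.09 and 1.23 FPKM in control DMSO. PSTK rose by 0.72 (SE 0.10, adjusted p = 0.000576). SEPSECS, the next enzyme of that route, was at 0.37 (adjusted p = 0.0263) and XPOT, which exports tRNA from the nucleus, at 0.27 (adjusted p = 0.0194). The sign of SEPSECS turned under quantile normalisation and that of XPOT under median-ratio scaling. SEPSECS kept its call under 10 of 17 alternatives, and lost it, among others, without FDX1-OE DMSO replicate 2 or FDX1-OE ES replicate 1. XPOT kept its call under 12 of 18, and lost it, among others, without either FDX1-OE DMSO library or FDX1-OE ES replicate 1. DTD1, which removes D-amino acids from tRNA, fell by 0.35 (adjusted p = 0.00423) and TRNT1, which adds the CCA end, by 0.32 (adjusted p = 0.0256, and 0.122 without FDX1-OE DMSO replicate 1).

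Lists of 15 integrated stress response genes and 15 interferon genes are given for comparison. Some of these genes passed the filter on low values only through elesclomol libraries, in which they had to be higher: ATF3 and VLDLR of the first list and MX1, IFIT1, IFIT3, IFI6 and IFI44 of the second were below 1 FPKM in all 4 DMSO libraries, and GBP1 was not tested. Of the 13 stress response genes that reached 1 FPKM in at least 2 DMSO libraries, 11 rose and SHMT2 fell in FDX1-OE cells, with a median of 0.86, and 7 rose in control cells, with a median of 0.34. DDIT3, the remaining gene of the 13, was at -0.43 in FDX1-OE cells (adjusted p = 0.0733) and at -0.29 in control cells (adjusted p = 0.339). ASNS, the asparagine synthetase and a standard ATF4 target, had 82.5 and 76.3 FPKM in FDX1-OE ES, against 37.1 and 38.6 FPKM in FDX1-OE DMSO. It rose by 1.05 (SE 0.08), and in control cells it was at 0.22 (adjusted p = 0.105). Of the 9 interferon genes that reached 1 FPKM in at least 2 DMSO libraries, 9 rose in FDX1-OE cells (median 2.64) and 6 in control cells (median 0.68). The medians over all genes were 0.25 in FDX1-OE cells and 0.09 in control cells, and 47.1% and 6.74% of all genes tested rose. Whether either response sets the level of any synthetase was not tested. Among control cells the counts for these lists rest on single libraries: without control ES replicate 2, 1 of the 15 stress response genes and 3 of the 14 interferon genes tested were called.

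**Figure D4:**
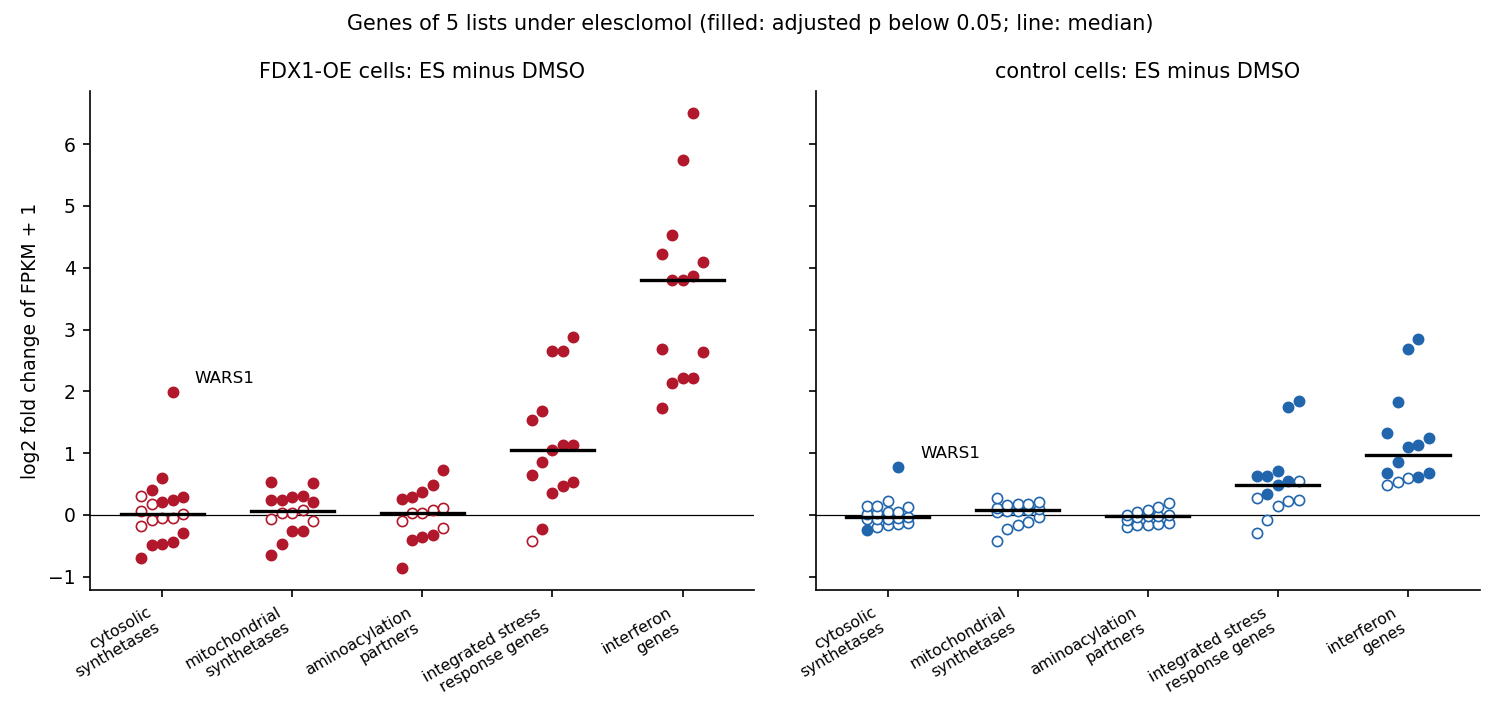
Log2 fold change of FPKM + 1 under elesclomol for cytosolic and mitochondrial synthetases, their partner genes, integrated stress response genes and interferon genes, in FDX1-OE cells (left) and control cells (right); filled points have an adjusted p below 0.05 and lines are list medians. In FDX1-OE cells the medians are 0.01, 0.06, 0.03, 1.05 and 3.80 from left to right, the last 2 including the 7 genes that were below 1 FPKM in all DMSO libraries. Without those 7 genes the last 2 medians are 0.86 and 2.64. WARS1 at 1.98 lies above the median of the stress response genes and below that of the interferon genes.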

How the data were processed

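Per the labels, TRIzol RNA was made into libraries with a VAHTS Universal V6 kit. The deposited values were read as FPKM from their behaviour, since no file header names the unit. HISAT2, HTSeq, R 3.2.0 and the build hg19 appear in the submitters' processing notes, with no roles given. Strand handling and depth are not given in the sources used here. The files hold no counts, so the planned test for normalised values was used. A gene was tested if 2 or more of the 8 libraries had 1 FPKM or more, on log2(FPKM + 1), which understates changes of low genes. The limma model (version 3.58.1, R 4.3.3) had a mean for each of the 4 groups and a trended prior variance, with 4 residual and 4.25 prior degrees of freedom. All 5 comparisons were two-sided, with Benjamini-Hochberg adjustment over all genes. The fit was tested on simulated data. Values in every library are given for the 7 cytosolic and 5 mitochondrial genes with the largest called change in FDX1-OE cells, for those nearest to no change, for called falls and for WARS2. HARS2, GARS1, PARS2, CARS2, QRSL1, EEF1E1, PSTK and ASNS were added after their values were seen. The members and lists were chosen with earlier results of these data known. Protein identity between partners was not analysed here.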

Additional observations from a re-analysis of the deposited data

Results flagged for a closer look

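Elesclomol changed 8 genes by different amounts in FDX1-OE and control cells, by the interaction term of limma (Benjamini-Hochberg adjusted over all genes, n = 2 libraries per group). They are 5 of 35 synthetases and 3 of 15 partner genes, where the term was called with a higher value for 13.9% of all genes and with a lower one for 5.06%. WARS1 differed by 1.21 log2 units, the only positive interaction of the 5 synthetases besides CARS1 at 0.39. The negative ones were VARS1 at -0.44, FARSA at -0.33 and MARS2 at -0.50. Among partner genes EEF1E1 differed by -0.65, PSTK by 0.53 and QRSL1 by 0.41. WARS1 was called in 17 of 17 alternatives. PSTK was called in 3 of 16, FARSA in 6 of 17, QRSL1, CARS1 and MARS2 in 9 of 17 each, and VARS1 and EEF1E1 in 12 of 17 each. Groups of 2 libraries are too small for a check of single outlying libraries.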

How the results depend on the processing

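The number of synthetases called in FDX1-OE ES against FDX1-OE DMSO was 14 with library weights and with only the groups compared, and 11 to 23 with 1 library left out. In control ES against control DMSO it was 1 after quantile normalisation, 0 with no filter, 5 with library weights and 0 to 4 with 1 library left out. In FDX1-OE ES against control ES it was 18 with equal totals, 6 with library weights and 7 to 17 with 1 library left out. The interaction gave 3 after quantile normalisation, 3 with no filter and 1 to 10 with 1 library left out. The DMSO comparison gave 0 throughout. With the replicate number as a block 19 were called in FDX1-OE ES against FDX1-OE DMSO, 1 in control ES against control DMSO, 10 in FDX1-OE ES against control ES, 0 between DMSO groups and 4 in the interaction. The shares of all genes called under these alternatives are not given, so the counts cannot be set against them. The numbers show no pairing: deviations of same-numbered libraries correlated between -0.05 and 0.079. The excess of cytosolic over mitochondrial mean log2 level was 2.32 (FDX1-OE ES), 2.05 (FDX1-OE DMSO) and 2.02 (control DMSO) after quantile normalisation. With a pseudocount of 0.1 it was 2.25, 2.22, 2.20 and 2.21, and with a filter at 5 FPKM 1.95, 1.89, 1.86 and 1.88, in FDX1-OE ES, FDX1-OE DMSO, control ES and control DMSO. Median-ratio scaling gave 2.12 in FDX1-OE DMSO. With 1 library left out it was 2.08 to 2.22, 2.11 to 2.11, 2.05 to 2.14 and 2.07 to 2.14 in the same order. In FDX1-OE cells IARS1 (-0.0478), SARS1 (-0.0801), AARS2 (-0.0379), EARS2 (-0.0205), TARS2 (-0.03) and XPOT (-0.0161) turned negative under median-ratio scaling, and AARS2 (-0.12), EARS2 (-0.0103), WARS2 (-0.0796) and SEPSECS (-0.0572) after quantile normalisation. The causes were not tested, except that a filter at 5 FPKM leaves 33 members and leaving out a library leaves fewer degrees of freedom. Applying the alternatives to partner, stress response and interferon genes was decided after seeing the data. Library weights gave the FDX1-OE ES libraries 0.36 each. Depth is unknown and arms hold 2 libraries, so a library left alone is assumed to vary like the others.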
